A study of Mus musculus with 6 samples.

Results

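Solute carriers are membrane proteins that move ions, sugars, amino acids, vitamins, nucleotides, metals and lipids across the plasma membrane or the membranes of organelles, and their symbols start with Slc followed by a family number. All members outside the Slc4 family of bicarbonate transporters were taken from mouse adrenal gland arrays. They were chosen by name: every probe set whose array annotation gave exactly 1 gene with an Slc symbol and a number, with the 7 probe sets whose symbol starts with Slc4a left out. This gave 178 probe sets of 144 genes in 39 families, of 8252 genes named by the 10855 probe sets with 1 gene, and 12488 probe sets in all. A probe set is a group of short oligonucleotides that together report 1 transcript. All 178 matched a RefSeq gene and none had a changed symbol. The rule used names only.

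RNA of adrenal glands came from BPH ("Blood Pressure High") mice, a hypertensive strain, and BPL ("Blood Pressure Low") mice, a hypotensive strain, with 3 Affymetrix MG_U74Av2 arrays of each. The labels name no treatment, age, sex or allele. They also do not say whether the arrays of a strain came from separate animals or from pooled glands, so p-values measure the spread between these arrays, which may be technical. Levels below are the deposited intensities, on a linear scale. A difference is log2 of the level in BPH minus that in BPL, taken after low values were raised to a floor of 201.3, so a positive difference is a higher level in BPH.

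The adrenal gland joins a cortex, which makes steroid hormones from cholesterol, to a medulla of chromaffin cells, which make and store adrenaline and noradrenaline. Carriers serve both: mitochondrial carriers of the Slc25 family exchange nucleotides and metabolites with the organelle where steroid synthesis starts, and plasma membrane carriers bring in ascorbate, amino acids and glucose. The gland is embedded in fat, which in mice includes brown fat. Carriers of fatty acids, acylcarnitine and insulin-responsive glucose uptake are also known from fat and muscle.

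Of the 178 probe sets, 106 (94 genes, 29 families) were bright enough to test, with a mean log2 level over the 6 arrays at or above that of an intensity of 668.1. The other 72 were not tested. Among these, 49 lay below the floor on at least 1 array, 17 of them on all 6, and 23 on none. The untested probe sets left 50 genes with no tested value, among them all members of the Slc8 sodium-calcium exchangers and the Slc16 monocarboxylate carriers. Levels are not compared between probe sets, because oligonucleotides differ in how brightly they bind.

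As a group, the carriers were split between the strains. Of the 106 tested probe sets, 55 (51.9%, beside 53.3% of all probe sets) had a positive and 51 a negative difference, and their median difference was 0.01 against 0.03 over all 7293 probe sets tested. The test, at an adjusted p under 0.05 over all probe sets, was passed by 1 of the 106, where 2.52% of all probe sets passed. That probe set, of Slc25a25, was higher in BPH (1.56% of all probe sets), and 0 carriers were called lower (0.96% of all), with 13 at an unadjusted p under 0.05 in that direction by the same limma test. At an unadjusted p under 0.05 there were 25 carriers (23.6%, 12 higher and 13 lower), beside 19.3% of all probe sets. The BPH and BPL arrays did not overlap for 35 carriers (33%, 18 higher and 17 lower), beside 26.5% of all. The median size of the difference, without its sign, was 0.25 in the carriers and 0.22 over all probe sets. Differences of at least 0.5 were found in 26 carriers (24.5%, beside 16.8% of all), and of at least 1 in 3 (2.83%, beside 3.09%).

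**Figure D1:**
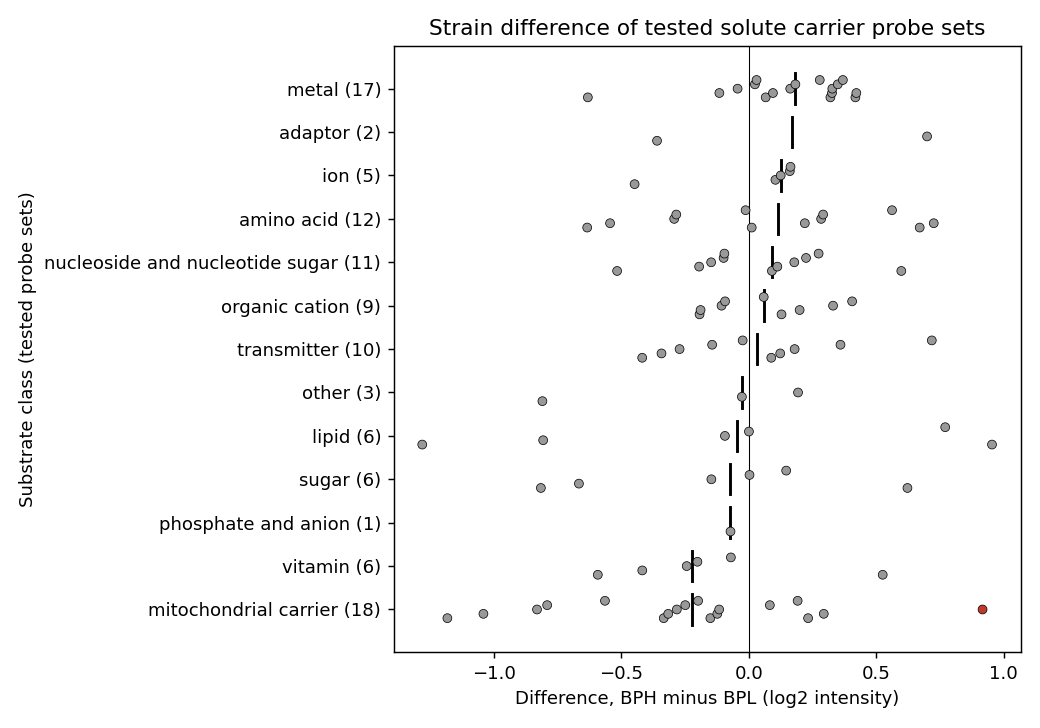
Difference between BPH and BPL (log2 intensity, horizontal axis) of the tested solute carrier probe sets, grouped by the substrate class of their family (vertical axis), with 1 point per probe set, the class median as a line and the 1 called probe set, of Slc25a25, in red. The mitochondrial carriers span -1.18 to 0.92 with a median of -0.22, while 14 of 17 metal carriers lie above 0 and no class lies wholly to one side except the single tested phosphate and anion carrier.

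The counts moved with the filter, the threshold and single arrays. With a filter at the 60th percentile, 3 of 71 tested carriers passed, where 4.48% of all probe sets did. Without a filter 0 of 178 passed in limma (0.419% of all), with 31 at an unadjusted p under 0.05. At an adjusted p under 0.01 the count with all arrays was 0 (0.658% of all). Without BPL 3, 10 of 108 tested carriers passed (9.26%), where 4.81% of all probe sets did. These 10 probe sets, 4 higher and 6 lower in BPH, came from 9 genes: Slc25a25, Slc38a2, Slc3a2 and Slc27a3 were higher, and Slc25a51 (both probe sets), Slc25a1, Slc25a20, Slc27a2 and Slc5a6 were lower. Without BPL 2, 2 passed, Slc25a25 and Slc25a1, where 2.08% of all probe sets did. Without BPH 2, 0 passed in limma (0.561% of all) and Slc25a25 had an adjusted p of 0.0676; 13 carriers had an unadjusted p under 0.05. Without BPH 3, 0 passed (0.659% of all), Slc25a25 had an adjusted p of 0.0672, and 21 had an unadjusted p under 0.05. BPH 1 and BPH 2 were run on fluidics station 2 and the other 4 arrays on station 1. With station as a blocking factor, 0 carriers passed (0.247% of all) and 10 had an unadjusted p under 0.05. Within station 1, which leaves BPH 3 alone against the 3 BPL arrays and takes its spread from those, 0 passed (0.0958% of all) and 8 had an unadjusted p under 0.05. Station 2 held no BPL array, so the fit with station as a blocking factor also takes its difference from BPH 3 against the 3 BPL arrays. These settings are therefore not separate checks.

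Markers of tissues around the gland moved with these arrays. All 7 brown fat markers were measured and none lay below the floor on all arrays. Their summed intensity was 37233 to 64585 on the BPH arrays and 101098 to 293768 on the BPL arrays, highest on BPL 2. Elovl3, a fatty acid elongase of brown fat, lay below the floor on all BPH arrays and on BPL 1. Ucp1, the uncoupling protein that defines brown fat, read 5336 to 13301 in BPH and 33362 to 98187 in BPL, a difference of -2.68 (SE 0.41, adjusted p = 0.0137). The 6 measured markers of fat cells in general summed to 80682 to 95021 in BPH and 79640 to 140527 in BPL, also highest on BPL 2. Of these 6, 1 had a positive and 5 a negative difference, with a median of -0.25. One of them, the lipase gene Lipe, was called lower in BPH (-1.25, SE 0.25, adjusted p = 0.0376). The positive one was Retn (0.58, SE 0.17, adjusted p = 0.112), while Adipoq was at -0.09 and Lep at -0.13. The 9 skeletal muscle markers summed to 119339 on BPH 1 and 140111 on BPL 2, and to 4932 to 14838 on the other arrays. The 6 chromaffin markers summed to 207182 to 250632 in BPH and to 178301, 120933 and 220043 on BPL 1, 2 and 3. Differences were positive for all 6 (median 0.65), and Penk, the precursor of enkephalin, was called higher in BPH (0.61, SE 0.13, adjusted p = 0.0472). The Penk probe set carries the suffix _f_, which marks oligonucleotides shared with other sequences of a family. The part of the chromaffin markers in the values of the carriers higher in BPH was not tested. The 6 cortex markers summed to 448532 to 530942 in BPH and 433939 to 509878 in BPL, with the lowest sum also on BPL 2. They were bright on every array, as were those of chromaffin cells. Of 5 kidney markers 2, and of 5 liver markers 1, lay below the floor on all arrays. The tissue was measured in bulk, so fewer cells of a type and less RNA per cell cannot be told apart.

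**Figure D2:**
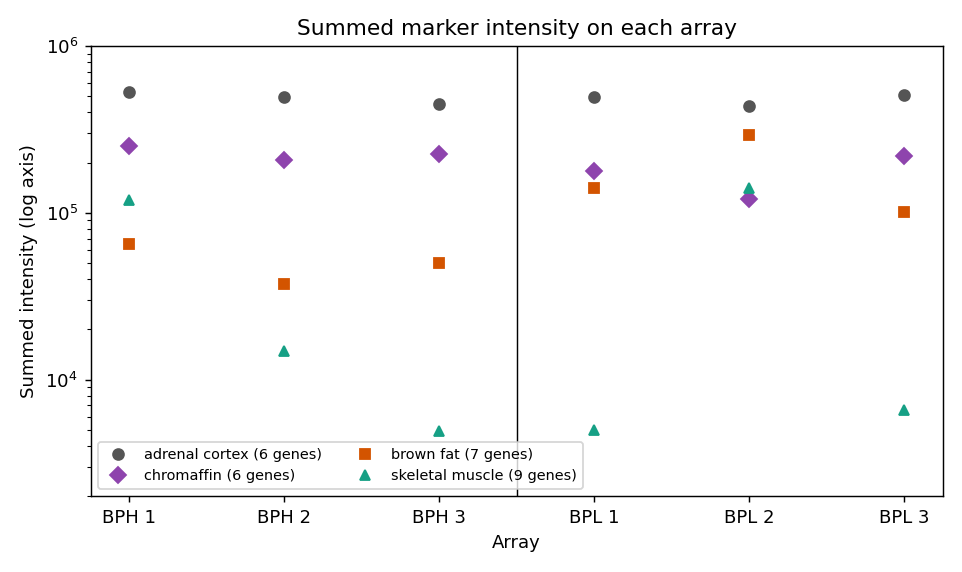
Summed intensity (log axis) of the markers of adrenal cortex, chromaffin cells, brown fat and skeletal muscle on each of the 6 arrays (horizontal axis). Brown fat sums are higher on every BPL array (101098 to 293768) than on any BPH array (37233 to 64585), and muscle sums are high on BPH 1 and BPL 2 only. The chromaffin sum (120933) and the cortex sum (433939) are both lowest on BPL 2.

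Mitochondrial carriers formed the largest family, with 24 probe sets of 20 genes, 18 of them (15 genes) tested. These proteins sit in the inner mitochondrial membrane, and 1 of the tested genes, Slc25a17, serves the peroxisome. Of the 18, 5 had a positive (27.8%, beside 53.3% of all probe sets) and 13 a negative difference, with a median of -0.22. In the limma test 7 had an unadjusted p under 0.05 (2 higher and 5 lower), as had 19.3% of all probe sets. The 5 lower ones were the tested probe sets of Slc25a1, Slc25a20 and Slc25a51. Of the 13 negative ones, 11 had their highest level on BPL 2, beside 39.6% of all negative probe sets. The 1 carrier called, Slc25a25, exchanges ATP bound to magnesium for phosphate and is regulated by calcium. Its probe set read 5894, 7513 and 6445 on BPH 1, 2 and 3 and 3592, 3203 and 3688 on BPL 1, 2 and 3. All BPH arrays were above all BPL arrays by a wide margin, and the level on BPL 2 was close to those of the other BPL arrays. The means were 6618 ± 823 on the BPH arrays and 3495 ± 257 on the BPL arrays (SD, n = 3 each), a difference of 0.92 (SE 0.14, adjusted p = 0.0116). It was number 56 by p among all probe sets. The difference passed in 13 of 18 alternatives, where its lowest adjusted p was 0.0072. It stayed between 0.82 and 1.00, though changes of filter, variance model or replicate block cannot move it. It was 0.93 without the 2 arrays richest in muscle markers (adjusted p = 0.0282), and 0.89 with station as a blocking factor (adjusted p = 0.235) or within station 1 (adjusted p = 0.361).

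Slc25a36, which carries pyrimidine nucleotides, was the other mitochondrial carrier higher in BPH at an unadjusted p under 0.05. Its levels were 7589, 7487 and 6489.9 on BPH 1, 2 and 3 and 5888, 6187 and 5491 on BPL 1, 2 and 3. The strains did not overlap, but the difference of 0.29 (SE 0.12, adjusted p = 0.229) did not pass, and it was 0.15 with station as a blocking factor or within station 1.

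The lower end of the family held carriers of citrate, acylcarnitine and NAD. Slc25a1 exports citrate, whose acetyl group is used for fatty acid and sterol synthesis in the cytosol. The first of its probe sets read 4649.7, 4960.3 and 5591 on BPH 1, 2 and 3 and 8703, 19762 and 8749 on BPL 1, 2 and 3. BPL 2 was well above the other arrays, and the strains did not overlap. The means were 5067 ± 479.9 on the BPH arrays and 12404 ± 6372 on the BPL arrays (SD, n = 3 each), and the difference was -1.18 (SE 0.29, adjusted p = 0.0722). Without BPL 2 it was -0.79 and passed (adjusted p = 0.0204), and without the 2 arrays richest in muscle markers it was -0.73 (adjusted p = 0.0509). The other Slc25a1 probe set gave 9406, 8401 and 8662 on BPH 1, 2 and 3 and 11747, 22995 and 13106 on BPL 1, 2 and 3. It also did not overlap, with a difference of -0.79 (SE 0.23, adjusted p = 0.104), and -0.49 without BPL 2. Both probe sets of the gene thus had the same sign, but the first passed in 2 of 18 alternatives and the other in 0.

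Slc25a20 brings acylcarnitine into the matrix for fatty acid oxidation. It read 10527, 7309 and 8759.7 on BPH 1, 2 and 3 and 17804, 26396 and 12473 on BPL 1, 2 and 3. Again every BPL array was above every BPH array and BPL 2 was the highest. The means were 8865 ± 1612 on the BPH arrays and 18891 ± 7025 on the BPL arrays (SD, n = 3 each), and the difference was -1.04 (SE 0.25, adjusted p = 0.0722), which did not pass with all arrays. Under the alternatives the difference lay between -1.31 and -0.77. It passed in 1 of 18, without BPL 3 (adjusted p = 0.018). Slc25a51, the mitochondrial carrier of NAD, had 2 tested probe sets. Its levels were 2917, 3036 and 3066 on BPH 1, 2 and 3 and 5711, 6688 and 3994 on BPL 1, 2 and 3. The difference was -0.83 (SE 0.19, adjusted p = 0.058), and that of the gene's other probe set was -0.56 (SE 0.21, adjusted p = 0.184), or -0.36 without the 2 arrays richest in muscle markers. That probe set carries the suffix _f_, which marks oligonucleotides shared with other sequences of a family.

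**Figure D3:**
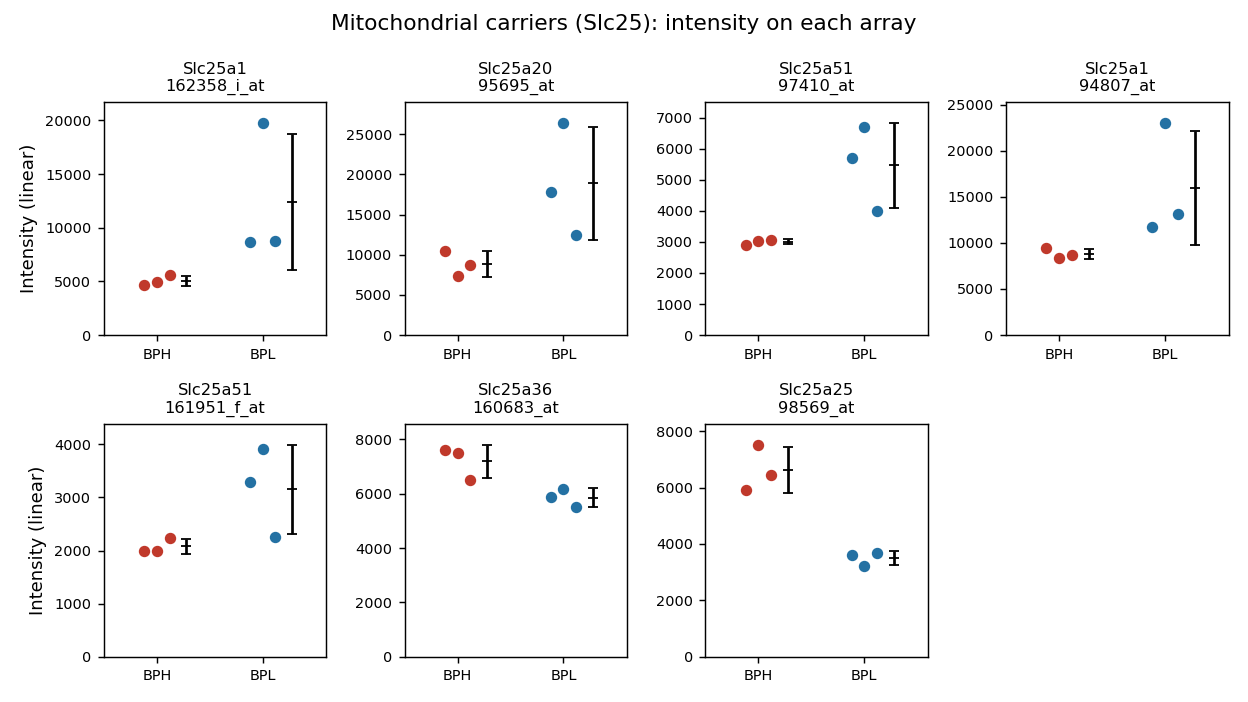
Intensity (linear axis from 0) of 7 Slc25 probe sets, 1 panel each, with a point for each of the 3 BPH and 3 BPL arrays and the mean ± SD of each strain beside them. Slc25a25 reads 5894 to 7513 in BPH and 3203 to 3688 in BPL, and Slc25a1 and Slc25a20 have their highest level on BPL 2.

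The other tested mitochondrial carriers had an unadjusted p above 0.05. Slc25a11, which exchanges oxoglutarate for malate, had -0.32 (SE 0.15, adjusted p = 0.283), and Slc25a10, the dicarboxylate carrier, -0.12 (SE 0.14, adjusted p = 0.671). Slc25a4 and Slc25a5 exchange ADP for ATP and are close in sequence, so oligonucleotides for one may bind the other's RNA and their values are uncertain. Slc25a4 had -0.20 (SE 0.21, adjusted p = 0.641), which turned to 0.05 without BPL 2, and the probe sets of Slc25a5 had opposite signs, -0.33 (SE 0.19, adjusted p = 0.369) and 0.19 (SE 0.23, adjusted p = 0.685). Slc25a3, the phosphate carrier, was too dim on this array's probe set to test.

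Genes of transport with names other than Slc were listed too, and this list is not limited to mitochondrial carriers. Of 35 listed, 15 were measured and 12 tested; 0 were called higher and 2 lower, Ucp1 and Ucp3 (1.56% and 0.96% of all probe sets), with 4 positive and 8 negative differences and a median of -0.08. Ucp3, an uncoupling protein of muscle and brown fat, read 1200.2 to 1381 in BPH and 2754 to 6539 in BPL, a difference of -1.71 (SE 0.28, adjusted p = 0.0178). Ucp1 belongs to the brown fat markers as well, and the part of the brown fat markers in the values of Slc25a1, Slc25a20 and Slc25a51 was not tested.

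The regions before the transcription starts of the 2 mitochondrial carriers higher in BPH and of Slc25a1 are shown, because these are the members of the family at its upper and lower ends. They were chosen after the values were seen. Each run is the 250 bases upstream of a RefSeq start on GRCm38.p6, 5′ to 3′ along the gene's own strand, which is the minus strand for all 4. Capitals mark matches, on either strand, to any of 6 motifs: TGACGTCA (the cAMP response element), TGACG (its shorter form, contained in the first), AGGTCA (a nuclear receptor half-site), CACNCCA (a core of sterol response elements), CCAAT (the CCAAT box) and GGGCGG (the GC box).
Slc25a25, start 1, chr2:32451471-32451720: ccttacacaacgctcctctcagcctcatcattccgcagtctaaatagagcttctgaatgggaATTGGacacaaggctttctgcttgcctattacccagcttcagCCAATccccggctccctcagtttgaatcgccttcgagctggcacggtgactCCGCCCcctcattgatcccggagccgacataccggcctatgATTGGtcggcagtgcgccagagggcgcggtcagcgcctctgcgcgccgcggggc
Slc25a25, start 3, chr2:32424067-32424316: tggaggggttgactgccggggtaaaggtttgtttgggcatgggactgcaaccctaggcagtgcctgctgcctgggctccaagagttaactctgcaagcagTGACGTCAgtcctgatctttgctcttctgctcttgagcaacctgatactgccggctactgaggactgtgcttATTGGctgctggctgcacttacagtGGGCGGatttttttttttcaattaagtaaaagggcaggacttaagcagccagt
Slc25a36, chr9:97111042-97111291: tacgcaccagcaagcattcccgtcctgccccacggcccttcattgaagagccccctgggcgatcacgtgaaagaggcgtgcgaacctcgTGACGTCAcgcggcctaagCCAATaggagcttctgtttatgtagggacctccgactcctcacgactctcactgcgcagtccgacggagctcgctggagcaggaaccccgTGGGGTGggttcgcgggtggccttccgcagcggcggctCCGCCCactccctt
Slc25a1, chr16:17928220-17928469: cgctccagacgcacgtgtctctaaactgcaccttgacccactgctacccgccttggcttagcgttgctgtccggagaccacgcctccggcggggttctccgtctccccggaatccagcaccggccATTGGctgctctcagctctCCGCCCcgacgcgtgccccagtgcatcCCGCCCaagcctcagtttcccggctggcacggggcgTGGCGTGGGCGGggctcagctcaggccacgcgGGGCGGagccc
The full cAMP response element stood before the start 3 of Slc25a25 and before that of Slc25a36, in 2 of the 23 windows found for 17 of the 22 genes with the smallest p. It was present in 1.55% of all 32851 RefSeq windows of this length. The window of start 1 held 3 CCAAT boxes and 1 GC box, and that of start 2 (chr2:32431152-32431401) held 2 CCAAT boxes and no other of the motifs. The Slc25a1 window held 4 GC boxes, 1 CCAAT box and 1 sterol core. Over the 23 windows, TGACG was found in 7, AGGTCA in 1, the sterol core in 4, the CCAAT box in 14 and the GC box in 19. In all windows these shares were 17.8%, 14%, 15.6%, 33.8% and 32.7%. Which start the probe set of Slc25a25 reports is not known here, and a match is a description of letters only.

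Fatty acid carriers of the Slc27 family did not share a sign. They take up long-chain fatty acids and join them to coenzyme A. Slc27a1 is a form of fat and muscle. Its levels were 3830.4, 3472 and 2879 on BPH 1, 2 and 3 and 4877, 7323 and 5728 on BPL 1, 2 and 3. The strains did not overlap, and the difference was -0.81 (SE 0.18, adjusted p = 0.0555). Slc27a2, which activates very long-chain fatty acids in liver and kidney, had the most negative difference of all tested carriers. It read 798, 477 and 670.3 on BPH 1, 2 and 3 and 1464, 2738 and 911 on BPL 1, 2 and 3. BPL 2 was again the highest, and the strains did not overlap. The difference was -1.28 (SE 0.40, adjusted p = 0.129). Slc27a3, of the same family, had a positive difference. Its probe set read 6499, 4956 and 5329 on BPH 1, 2 and 3 and 3258, 2509.9 and 4231 on BPL 1, 2 and 3. Here BPL 2 was the lowest, no BPL array reached a BPH array, and the difference was 0.77 (SE 0.20, adjusted p = 0.0826). It was 0.47 without the 2 arrays richest in muscle markers. Slc27a4 had a difference of 0.00 (SE 0.49), which lay between -0.64 and 0.38 when 1 array was left out.

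In the rest of the lipid group, Slc10a6, which carries sulphated steroids, had a difference that rested on 1 array. Its levels were 1163, 1538 and 1489.9 on BPH 1, 2 and 3 and 1105, 1649.5 and 156 on BPL 1, 2 and 3. BPL 3 lay below the floor, the only such value among the tested carriers, and the difference was 0.95 (SE 0.66, adjusted p = 0.466), the largest positive value of the tested carriers with this floor. With an offset in place of the floor it was 0.74, below that of Slc25a25 (0.88), and without BPL 3 it was 0.04.

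Among sugar carriers, the glucose transporters of the Slc2 family had both signs. Slc2a4, the insulin-responsive transporter of fat and muscle known as GLUT4, had its highest level on BPL 2. Its probe set gave 2241, 1956 and 1841 on BPH 1, 2 and 3 and 2541, 4965 and 2554 on BPL 1, 2 and 3. The strains did not overlap, and the difference was -0.67 (SE 0.26, adjusted p = 0.204); without BPL 2 it was -0.34, and without the 2 arrays richest in muscle markers -0.42 (adjusted p = 0.329). Slc2a8, an intracellular transporter, had -0.15 (SE 0.13, adjusted p = 0.565). Slc2a1, the glucose transporter of most cells, had 0.00 (SE 0.31, adjusted p = 0.997), and Slc2a3, a transporter of neurons, 0.62 (SE 0.52, adjusted p = 0.547), which turned to -0.15 without the 2 arrays richest in muscle markers. Slc5a6 belongs by number to the sodium-coupled sugar carriers but carries biotin and pantothenate. It read 1866, 1430.3 and 2215 on BPH 1, 2 and 3 and 3227, 4542 and 2196 on BPL 1, 2 and 3. The highest BPH array was just above the lowest BPL array, and the difference was -0.81 (SE 0.27, adjusted p = 0.149), or -0.52 with station as a blocking factor. The sums of brown fat, general fat cell and skeletal muscle markers given above were all highest on BPL 2. So were the levels of Slc25a1, Slc25a20, Slc25a51, Slc27a1, Slc27a2, Slc2a4, Slc5a6 and the Slc39a4 probe set with a difference of -0.63. The part of each group of markers in these results was not tested. Of the 12 negative probe sets with the smallest p, 10 had their highest level on BPL 2, and of the 12 positive ones 8 had their lowest level there. Over all negative carriers this was 26 of 51 (51.0%), beside 39.6% of all negative probe sets; over all positive carriers it was 28 of 55 (50.9%), beside 49.9%.

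**Figure D4:**
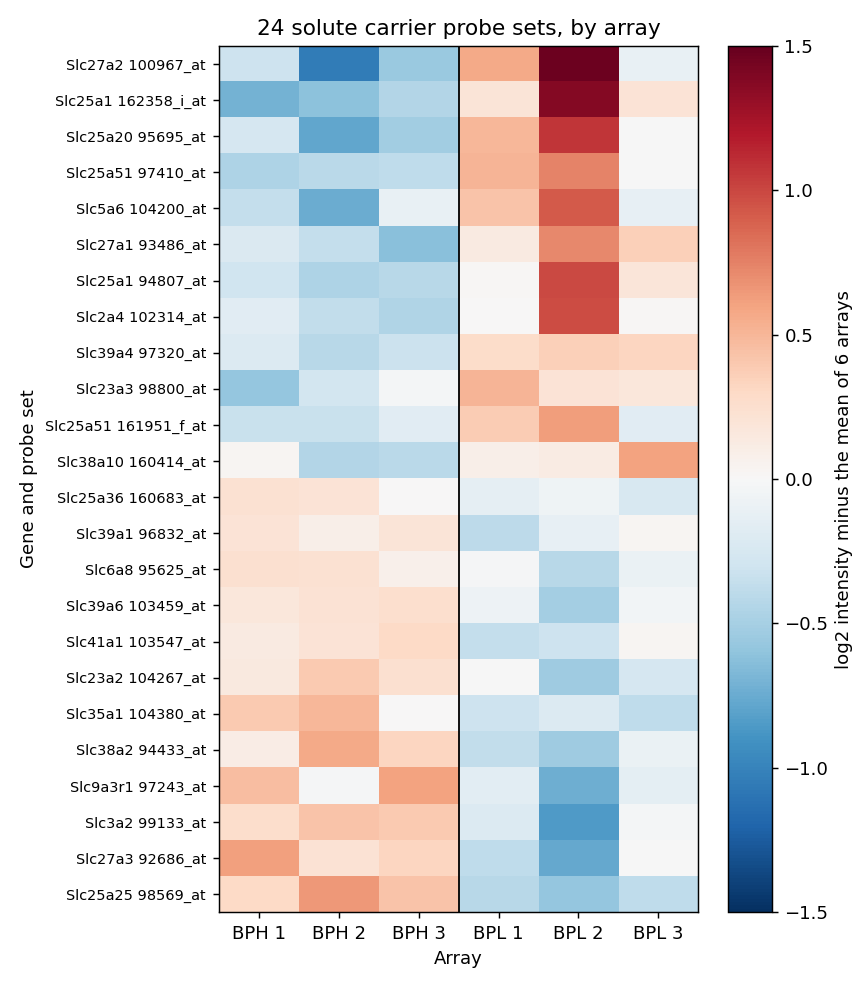
Log2 intensity minus the mean of the 6 arrays (colour) for the 24 probe sets with the smallest p, 12 in each direction (rows), on each array (columns). BPL 2 has the strongest colour in 9 of the 12 rows lower in BPH and in 6 of the 12 rows higher in BPH, while Slc25a25 has similar values on all 3 BPL arrays.

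Amino acid carriers included 26 probe sets of 20 genes, 12 of them tested, with 7 positive and 5 negative differences and a median of 0.12; 0 were called and 4 had an unadjusted p under 0.05, 2 in each direction. Slc3a2 is the heavy chain that brings Slc7 light chains to the plasma membrane. Its levels were 22496, 25224 and 24621 on BPH 1, 2 and 3 and 16299, 10363 and 18308 on BPL 1, 2 and 3. BPL 2 was the lowest by far, no BPL array reached a BPH array, and the difference was 0.73 (SE 0.20, adjusted p = 0.093); it was 0.48 without BPL 2. Slc38a2 imports small neutral amino acids with sodium. Its tested probe set read 6855, 9418 and 7894 on BPH 1, 2 and 3 and 4893, 4359.7 and 5929.6 on BPL 1, 2 and 3. The strains did not overlap, and the difference was 0.67 (SE 0.16, adjusted p = 0.0721). Its other 3 probe sets were too dim to test. Slc7a5, the large neutral amino acid carrier that pairs with Slc3a2, had 0.29 (SE 0.14, adjusted p = 0.309), and Slc7a8, its relative, 0.56 (SE 0.33, adjusted p = 0.379). All 4 tested Slc7 members were positive (0.22 to 0.56), and 0 had an unadjusted p under 0.05 in the limma test, the only test run. Slc7a2, which carries arginine and lysine, had 0.28 (SE 0.27, adjusted p = 0.597), or -0.01 without the 2 arrays richest in muscle markers, and Slc1a4, which carries alanine, serine and cysteine, -0.01 (SE 0.24, adjusted p = 0.982). Slc38a4, a relative of Slc38a2, had -0.29 (SE 0.21, adjusted p = 0.472), although all of its BPL arrays were above its BPH arrays. On the negative side, Slc38a10 had -0.54 (SE 0.19, adjusted p = 0.16) and Slc1a5, a glutamine carrier, -0.63 (SE 0.27, adjusted p = 0.25), with arrays that overlapped for the latter.

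Transporters of neurotransmitters and related molecules were read in 19 probe sets of 14 genes, 10 tested, with 5 differences on each side and a median of 0.03. Slc6a8, the creatine transporter, had 0.36 (SE 0.14, adjusted p = 0.211), or 0.24 without BPL 2 and 0.21 without the 2 arrays richest in muscle markers. Slc6a2 takes up noradrenaline in sympathetic neurons and chromaffin cells, and both of its probe sets were too dim to test, at 218 to 789.8 and 417 to 1228. The taurine transporter Slc6a6 had -0.14 (SE 0.11, adjusted p = 0.489) on 1 probe set and 0.12 (SE 0.41, adjusted p = 0.897) on the other, which turned to -0.29 without BPH 3. Slc6a4, the serotonin transporter, was looked at after its values were seen. One of its probe sets gave 3909, 3926 and 4301 on BPH 1, 2 and 3 and 2935, 1317 and 3839 on BPL 1, 2 and 3. BPL 2 was far below the rest, the strains did not overlap, and the difference was 0.72 (SE 0.33, adjusted p = 0.283); the other probe set had 0.18 (SE 0.18, adjusted p = 0.61). The chromaffin and cortex sums were both lowest on BPL 2 as well, and their part in this value was not tested.

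Vitamin carriers had 1 positive and 5 negative differences among 6 tested probe sets. Slc23a2 carries ascorbate, which the adrenal gland holds at high concentration. It read 7529, 8955 and 8047 on BPH 1, 2 and 3 and 6775, 4709.5 and 5706 on BPL 1, 2 and 3. No BPL array reached a BPH array, BPL 2 was the lowest, and the difference was 0.53 (SE 0.15, adjusted p = 0.11). The 2 probe sets of Slc23a3, a relative whose substrate is less well known, had -0.59 (SE 0.25, adjusted p = 0.243) and -0.42 (SE 0.21, adjusted p = 0.307), and the first was -0.33 with station as a blocking factor. Slc23a1, the other ascorbate carrier, was too dim to test.

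Metal carriers had 14 of 17 tested probe sets above 0 (82.4%, beside 53.3% of all probe sets) and a median of 0.18. The 17 are probe sets of 13 genes, so they are not separate counts. With quantile normalization 12 of 17 (70.6%) were above 0, as the differences of Slc31a1 and Slc39a4 nearest 0 turned. The share was also 70.6% with station as a blocking factor. Without the 2 arrays richest in muscle markers it was 12 of 18 (66.7%, beside 52.4% of all probe sets). With the filter at the 60th percentile it was 12 of 14 (85.7%, beside 56% of all). In the limma test 0 were called, and 4 had an unadjusted p under 0.05 (3 higher and 1 lower). Slc41a1, a magnesium carrier, had 0.42 (SE 0.15, adjusted p = 0.177), Slc39a1, a zinc importer of the plasma membrane, 0.32 (SE 0.13, adjusted p = 0.239), and Slc39a6, another zinc importer, 0.42 (SE 0.18, adjusted p = 0.253). Slc39a1 was at 0.20 without BPL 1 and Slc39a6 at 0.27 without BPL 2. The levels of Slc41a1 were 3066, 3222 and 3446 on BPH 1, 2 and 3 and 2194, 2259 and 2859.6 on BPL 1, 2 and 3. The strains did not overlap. Slc39a4, the zinc importer of the gut, stood opposite with -0.63 (SE 0.26, adjusted p = 0.228), but its other tested probe set had 0.02 (SE 0.12, adjusted p = 0.933). Slc39a7 releases zinc from the endoplasmic reticulum. Its levels were 11644, 10931 and 10423 on BPH 1, 2 and 3 and 11169.9, 5795 and 10371 on BPL 1, 2 and 3. BPL 2 stood well below the other 5 arrays, and the difference was 0.33 (SE 0.23, adjusted p = 0.465), or -0.01 without the 2 arrays richest in muscle markers. Of the Slc30 zinc exporters, Slc30a3, which fills vesicles with zinc, had -0.04 (SE 0.16, adjusted p = 0.907), and Slc30a4 0.33 (SE 0.21, adjusted p = 0.425). For iron, the probe sets of Slc11a2 had 0.16 (SE 0.18, adjusted p = 0.646) and 0.07 (SE 0.17, adjusted p = 0.864). The copper importer Slc31a1 had 0.09 (SE 0.19, adjusted p = 0.821) and 0.03 (SE 0.15, adjusted p = 0.929).

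The 5 tested carriers of ions had differences from -0.45 to 0.16. The cation-chloride cotransporters move chloride with sodium or potassium. Slc12a2 had 0.10 (SE 0.15, adjusted p = 0.748), Slc12a4 0.13 (SE 0.12, adjusted p = 0.599) and Slc12a7 0.16 (SE 0.16, adjusted p = 0.607), while Slc12a5, the neuronal form, had -0.45 (SE 0.31, adjusted p = 0.47). Of 5 tested ion carriers 0 had an unadjusted p under 0.05 in the limma test. The sodium-calcium exchanger Slc8a1 had 3 probe sets, none of them tested. Slc9a8, a sodium-hydrogen exchanger of the Golgi, had 0.16 (SE 0.16, adjusted p = 0.619). Slc9a3r1 is not a transporter but a scaffold that binds a sodium-hydrogen exchanger and shares its symbol's stem. It read 2802, 1999 and 3084 on BPH 1, 2 and 3 and 1811, 1220.4 and 1826 on BPL 1, 2 and 3. The arrays did not overlap, and the difference was 0.70 (SE 0.23, adjusted p = 0.144), or 0.45 without the 2 arrays richest in muscle markers. Slc9a3r2, the other scaffold of this kind, falls outside the rule for named genes and is given to complete the pair. Its levels were 1425, 1166 and 1458 on BPH 1, 2 and 3 and 1985, 1600.1 and 1611 on BPL 1, 2 and 3. These arrays did not overlap either, and the difference had the opposite sign, -0.36 (SE 0.19, adjusted p = 0.33).

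Nucleoside and nucleotide sugar carriers had 6 positive and 5 negative differences. Slc35a1 brings CMP-sialic acid into the Golgi. Its levels were 3084, 3311 and 2359 on BPH 1, 2 and 3 and 1893, 2033 and 1804 on BPL 1, 2 and 3. The strains did not overlap, with a difference of 0.60 (SE 0.17, adjusted p = 0.0975). It was 0.31 with station as a blocking factor or within station 1. Slc35a2, which brings UDP-galactose there, had 0.27 (SE 0.28, adjusted p = 0.632). Slc35b1 had -0.15 (SE 0.11, adjusted p = 0.498), and the probe sets of the nucleoside transporter Slc29a1 had opposite signs, 0.22 (SE 0.16, adjusted p = 0.485) and -0.10 (SE 0.24, adjusted p = 0.856). Organic cation carriers had 5 positive and 4 negative differences and 0 at an unadjusted p under 0.05; among them, Slc22a5, the carnitine importer, had 0.13 (SE 0.21, adjusted p = 0.776), Slc22a2 -0.19 (SE 0.31, adjusted p = 0.778) and Slc22a17 0.06 (SE 0.22, adjusted p = 0.911), and the tested probe set of the choline carrier relative Slc44a4 -0.19 (SE 0.17, adjusted p = 0.562). Slc20a1, a phosphate importer, had -0.07 (SE 0.18, adjusted p = 0.852). The lactate and pyruvate carrier Slc16a1 was not tested. It read 338, 560.3 and 251 on BPH 1, 2 and 3 and 912, 1373 and 457 on BPL 1, 2 and 3. Its arrays overlapped. Other listed transporters were too dim as well. The untested cationic and exchange carriers Slc7a1, Slc7a3, Slc7a7 and Slc7a11 and the glutamate carrier Slc1a1 lay below the floor on 2 to 6 arrays per probe set, as did the glucose carrier Slc5a1 on 5 and the carboxylate carrier Slc16a7 on 6. The bile acid carrier Slc10a1, a liver gene, had 3 probe sets below the floor on 1, 2 and 6 arrays. Slc11a1, the metal transporter of macrophages, lay above the floor on all arrays. It read 804, 682 and 762 on BPH 1, 2 and 3 and 745, 246 and 268 on BPL 1, 2 and 3. BPL 2 and BPL 3 were the lowest, BPL 1 lay among the BPH arrays, and no test was made.

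**Figure D5:**
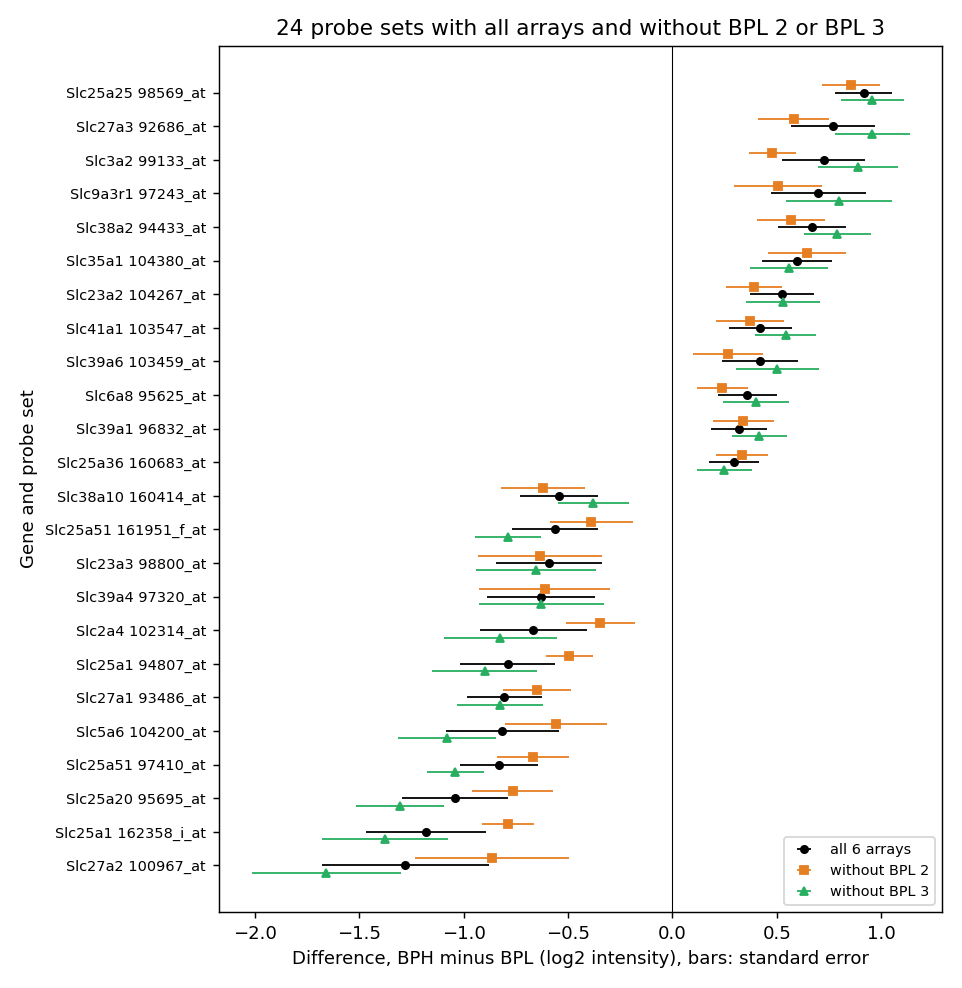
Difference between BPH and BPL (log2 intensity, horizontal axis, bars show the standard error) of the 24 probe sets with the smallest p, with all 6 arrays, without BPL 2 and without BPL 3. Slc25a25 moves little (0.92, 0.86 and 0.96), Slc2a4 moves from -0.67 to -0.34 without BPL 2, and all 24 keep their sign.

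All 24 of these probe sets kept their sign under every alternative that could be fitted, up to 18 for each. They were chosen by the smallest p on these same arrays, so the kept signs are no separate support for them. Of the 65 named tested probe sets, 44 kept their sign in all alternatives and 21 did not, and the smallest adjusted p of these 21 was 0.465. A change of filter, variance model or replicate block leaves a fitted difference as it is, so these alternatives could not turn a sign. Of 29 genes with several probe sets, 12 had at least 2 tested, and in 7 of these the signs matched. A list of partners and regulators of carriers, 23 genes with 17 measured and 13 tested, included both scaffolds Slc9a3r1 and Slc9a3r2. It had 7 positive and 6 negative differences with a median of 0.00. None was called in limma (2.52% of all probe sets), and 2 had an unadjusted p under 0.05. At the negative end, Nedd4l, a ubiquitin ligase that removes carriers and channels from the membrane, had a difference of -0.59 (SE 0.17, adjusted p = 0.107). Sgk1, a kinase that opposes it, had 0.27 (SE 0.13, adjusted p = 0.281), and Stk39, a kinase that activates Slc12 cotransporters, had 0.46 (SE 0.23, adjusted p = 0.309). Bsg, the chaperone of Slc16 carriers, had -0.16 (SE 0.12, adjusted p = 0.505).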

How the data were processed

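Adrenal gland RNA of 6 samples, 3 BPH and 3 BPL, was measured on MG_U74Av2 arrays. The authors deposited 1 linear intensity per probe set and array; which software was used was not given in the sources used here. Trimmed by 2% at each end, the mean intensity was 2501.3 to 2501.5 on every array, so no further scaling was applied. Median intensities were 1003 to 1115, and 18.6% to 22.4% of probe sets lay under the floor described next. Precision is limited by the number of arrays.

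Intensities below the 20th percentile of the table (201.3) were set to it and taken to log2. The floor understates differences of dim genes. Control probe sets (66) and those whose mean log2 value lay under that of the 40th percentile (668.1) did not enter the test, which left 7293. Strains were compared in all 6 arrays in limma 3.58.1 under R 4.3.3 (lmFit, then eBayes with trend), two-sided, with Benjamini-Hochberg adjustment over the 7293 probe sets. The fit was tested on simulated data.

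Gene names came from the platform annotation: 10855 probe sets had 1 gene, 396 several and 1237 none, and 10839 of the first matched a RefSeq gene. Probe sets of several genes were not used as members. Promoter windows are those of RefSeq on GRCm38.p6. Substrate classes follow the family number, with the 2 Slc9a3r scaffolds kept apart. A member such as Slc5a6 can therefore carry another substrate than its class.

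The members, lists and tests were chosen with earlier results of these data known. Named are called members, the 12 smallest p in each direction, the brightest probe set of each family with 3 or more tested, members of a list of transporters known in adrenal gland, nerve, fat, muscle or all cells, and every other probe set of these genes; where space allowed no value, members are given by counts. The alternatives changed the normalization, floor, filter, variance model, threshold, unit counted, replicate block, fluidics station and arrays. Setting aside the 2 arrays richest in muscle markers was chosen after seeing the data.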

Additional observations from a re-analysis of the deposited data

How the results depend on the processing

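Of the 106 tested carriers 1 passed with all arrays. None passed at an adjusted p under 0.01 (0), without a filter (0), with station as a blocking factor (0), or in station 1 alone (0), and 3 of 71 passed with the filter at the 60th percentile (Slc25a25, Slc25a51 and Slc27a1), where 4.48% of all probe sets did. Leaving out 1 array gave 0 to 10. The median difference of 0.01 became 0.0474 with station as a blocking factor and 0.0614 in station 1 alone (0.0444 and 0.0427 over all probe sets), and lay between -0.0224 and 0.0419 when 1 array was left out. Replicate numbers did not pair the arrays: same-numbered BPH and BPL arrays correlated at -0.22, -0.08 and 0.01 in their deviations from the strain means. With the replicate block, 1 carrier passed and the median was 0.01. Over all probe sets the block gave 124 calls in place of 184.

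Of 1149 values of 65 named probe sets under alternatives, 1026 kept their direction and call, 45 moved by more than a standard error in the same direction, 12 passed where the value with all arrays did not, and 5, all of Slc25a25, no longer passed. The 1149 include changes of filter, variance model and replicate block, under which only the call and not the difference could change. The sign turned in 61 values of 21 probe sets, none of them past the threshold; where a gene has several probe sets, the value with all arrays follows its name. The values were -0.0032 for the Slc31a1 probe set at 0.03 and -0.0053 for the Slc39a4 probe set at 0.02 under quantile normalization. Median scaling gave 0.0125 for Slc1a4. The offset gave -0.0414 for Slc27a4 and -0.0024 for Slc2a1. With station as a blocking factor and in station 1 alone they were -0.1598 for the Slc11a2 probe set at 0.07, -0.0309 for Slc12a2, 0.144 for Slc1a4, 0.1683 for Slc20a1, -0.2643 for Slc27a4, 0.1319 for the Slc29a1 probe set at -0.10, -0.1618 for Slc2a1 and -0.111 for the Slc31a1 probe set at 0.03. Without the 2 arrays richest in muscle markers they were -0.0065 for Slc12a2, 0.0508 for Slc20a1, -0.0337 for Slc22a17, 0.0723 for Slc22a2, -0.0303 for the Slc29a1 probe set at 0.22, -0.2263 for Slc2a1, -0.1547 for Slc2a3, -0.0806 for the Slc31a1 probe set at 0.09, -0.0769 for the Slc31a1 probe set at 0.03, -0.012 for Slc39a7 and -0.0083 for Slc7a2. Leaving out 1 array gave -0.0329 to 0.1796 for the Slc11a2 probe set at 0.07, -0.0101 to 0.2427 for Slc12a2, -0.2887 to 0.1986 for Slc1a4, -0.1426 to 0.2473 for Slc22a17, -0.3943 to 0.0921 for Slc22a2 and -0.0424 to 0.2305 for Slc22a5. It gave -0.3263 to 0.0507 for Slc25a4, -0.6444 to 0.3755 for Slc27a4, -0.2138 to 0.0699 for the Slc29a1 probe set at -0.10, -0.208 to 0.1382 for Slc2a1, -0.1651 to 0.1264 for Slc30a3 and -0.0307 to 0.3054 for the Slc31a1 probe set at 0.09. The rest lay at -0.0597 to 0.1527 for the Slc31a1 probe set at 0.03, -0.0597 to 0.076 for the Slc39a4 probe set at 0.02, -0.2916 to 0.4837 for the Slc6a6 probe set at 0.12 and -0.0127 to 0.2621 for Slc9a8. Signal over background limits the 72 dim probe sets, which have no test.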
